A study of Homo sapiens with 12 samples.

Results

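The 53 genes described here encode the transporters, channels and brush border proteins with which the proximal tubule reclaims filtered solutes and secretes organic ions. They were chosen by name, and each was read from its brightest probe on the array. All 53 were present among the 25992 gene names of the array. RNA of both HPTC lines was hybridized to 12 one-color arrays. Both are immortalized human proximal tubular lines, HK-2 by papillomavirus genes and RPTEC/TERT1 by telomerase, so each stands for 1 culture model. All cells had been deprived of serum and supplements, and after a change of medium were left without a ligand (control) or received IL-1β (10 ng/mL) or Empa (500 nM) for 24 h, with 2 arrays per line and treatment. No array carried cells given both ligands. The arrays of a group are biological duplicates according to the study's methods, and their small number limits the precision of every value.

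Proximal tubular cells take up protein, phosphate, bicarbonate, amino acids, peptides and carboxylates across an apical brush border and pass them to the blood side, and they secrete drugs and other organic ions in the opposite direction. The apical endocytic receptors retrieve filtered proteins, sodium-coupled carriers use the gradient that the Na,K-ATPase sets up, and peptidases on the microvilli split filtered peptides. Cultured proximal tubular cells are known to keep only some of this equipment.

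The 12 arrays lay on 4 slides, each with the control, IL-1β and Empa array of 1 line and replicate number, and each replicate number was scanned together. The sample titles give the line, whereas another label names HK-2 for all 12 arrays. Across 12607 genes, the control array of HK-2 replicate 1 correlated with that of RPTEC/TERT1 replicate 2 at r = 0.984, and HK-2 replicate 2 with RPTEC/TERT1 replicate 1 at r = 0.973. The 2 control arrays labelled HK-2 correlated at r = 0.875 and those labelled RPTEC/TERT1 at r = 0.870, so the arrays go against their line labels. Over the 22 genes of this module measured on all arrays, the corresponding values were 0.997 and 0.947 across the labels, and 0.437 and 0.516 within them. Genes share the array in such correlations and are no replicates. Each slide is therefore described by its own values, treatments are read against the control array of the same slide, and lines are named as labelled. Levels are log2 values relative to the 75th percentile of the array, and lists of 4 values follow the order HK-2 replicate 1, HK-2 replicate 2, RPTEC/TERT1 replicate 1 and RPTEC/TERT1 replicate 2. Levels of different genes come from different probes and are not compared.

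For genes called with IL-1β, the 250 bases before the transcription start were read from the RefSeq promoter set (GRCh38.p14), which matched 43 of the 53 genes with 64 starts. They are printed for 4 of the genes with a single start that were called in the fit with the replicate block described below, from 5′ to 3′ on the strand of the gene. ABCC4, called lower and with a single start, is not printed. SLC22A4 (chr5:132294144-132294393, + strand) was called higher with IL-1β, whereas LRP2 (chr2:169362535-169362784, - strand), SLC34A1 (chr5:177384184-177384433, + strand) and SLC17A1 (chr6:25832053-25832302, - strand) were called lower. The calls of SLC34A1 and SLC17A1 support nothing further, as explained with the fits below. Capitals mark matches to the NF-κB consensus or to TATAAA, searched on both strands.
SLC22A4: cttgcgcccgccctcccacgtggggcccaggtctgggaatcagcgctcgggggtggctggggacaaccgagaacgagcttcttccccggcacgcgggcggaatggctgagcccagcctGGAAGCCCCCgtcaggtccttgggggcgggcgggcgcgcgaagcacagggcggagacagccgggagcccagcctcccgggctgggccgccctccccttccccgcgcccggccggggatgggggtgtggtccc
LRP2: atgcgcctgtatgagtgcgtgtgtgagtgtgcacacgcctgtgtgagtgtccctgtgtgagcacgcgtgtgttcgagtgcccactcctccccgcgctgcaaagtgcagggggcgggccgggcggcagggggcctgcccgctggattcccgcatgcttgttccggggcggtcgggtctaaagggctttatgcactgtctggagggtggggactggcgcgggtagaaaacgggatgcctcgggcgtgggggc
SLC34A1: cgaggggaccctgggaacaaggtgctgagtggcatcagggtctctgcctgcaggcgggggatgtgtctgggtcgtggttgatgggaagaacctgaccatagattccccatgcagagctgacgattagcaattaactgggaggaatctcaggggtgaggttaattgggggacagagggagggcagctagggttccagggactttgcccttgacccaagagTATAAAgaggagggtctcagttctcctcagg
SLC17A1: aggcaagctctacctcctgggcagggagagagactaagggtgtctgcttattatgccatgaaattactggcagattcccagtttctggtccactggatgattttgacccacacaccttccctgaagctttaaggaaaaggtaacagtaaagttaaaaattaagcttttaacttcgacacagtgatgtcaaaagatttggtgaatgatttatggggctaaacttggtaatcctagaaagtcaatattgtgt
The NF-κB consensus, the sequence bound by the transcription factor that IL-1β is known to activate, matched in SLC22A4 alone among the 10 starts of the called genes in the set, with 122 bases between the match and the start. It matched in 4 of the 64 starts of the module (6.25%) and in 9.96% of all 35116 starts. TATAAA matched in SLC34A1, with 25 bases between the match and the start, and in a start of SLC34A2. It matched in 6 of the 64 starts (9.38%) and in 10.7% of all starts. A match describes these letters only.

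Of the 53 genes, 22 gave a signal well above background on all 12 arrays, against 49.2% of all genes, and 18 did so on 1 to 11 arrays. The other 13 were not well above background on any array (24.7% of all genes). They were CUBN (cubilin, the partner of megalin in protein uptake), SLC9A3 (the apical sodium-hydrogen exchanger), CA4 (a membrane-bound carbonic anhydrase), SLC22A6 (the basolateral organic anion exchanger), SLC22A12 (the urate exchanger), SLC22A2 (the basolateral organic cation carrier), SLC47A1 and SLC47A2 (apical cation exporters), SLC7A9 (the light chain of the cystine carrier), SLC15A2 (a peptide carrier), SLC13A1 (the apical sulfate carrier), SLC5A8 (a monocarboxylate carrier) and SLC23A1 (a vitamin C carrier). CUBN, SLC22A6, SLC22A12 and SLC9A3, textbook genes of the segment, were thus below detection in these cultures, whereas LRP2, AMN, AQP1 and GGT1 were detected on all 12 arrays. A second probe of CUBN was well above background on 1 array, and a second probe of AQP1 on 7. The control levels of CUBN, SLC22A12, SLC22A2 and SLC47A1 differed by more than 3 between slides, but dim signals have no order.

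The 22 genes on all arrays were LRP2 and AMN among the endocytic receptors, AQP1, SLC20A1, SLC20A2, SLC4A4, FXYD2 and CA2 among the water, phosphate and bicarbonate genes, SLC22A8, SLC17A3, SLCO4C1 and ABCC4 among the organic anion carriers, SLC22A5, SLC22A18 and ABCB1 among the cation and drug carriers, SLC3A1 and SLC1A1 among the amino acid carriers, SLC16A1, SLC5A12 and SLC26A6 among the carboxylate and sulfate carriers, and the peptidases GGT1 and DPP4. For SLC22A8 and SLC5A12 a second probe was well above background on 0 arrays and 1 array, so their detection depends on the probe. Other probes passed on 4 and 0 arrays for SLC3A1, on 5 and 2 for SLCO4C1, and on 7 for AQP1 and for ABCB1. ATP1B1 (the β subunit of the Na,K-ATPase), SLC34A2, SLC22A4, SLC17A1 and SLC6A18 (an amino acid carrier) passed on 9 to 11 arrays. SLC7A7, SLC15A1, SLC26A1 (a sulfate and oxalate exchanger), CA12, SLC7A8, SLC6A13 and ANPEP passed on 6 or 7 arrays, and SLC34A1, ABCC2 (an apical organic anion pump), ABCG2 (a urate and drug pump), SLC6A19 (the neutral amino acid carrier), SLC13A3 (a dicarboxylate carrier) and SLC5A10 (a sugar carrier) on 2 to 4 arrays. Between 30 and 33 of the genes were well above background on each control array. The fits cover 32 of the 53 genes, for which some group of line and treatment had both of its signals well above background. A gene bright in 1 group only entered through that group.

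Levels without a ligand differed widely between slides, also between slides of the same labelled line. In 9 of the 32 genes the 4 control levels spanned at least 3 on the log2 scale (7.37% of all genes tested), and the median span was 1.91 against 1.06 for all genes. In 6 of these 9 genes the highest levels were on the slides of HK-2 replicate 1 and of RPTEC/TERT1 replicate 2, and in the other 3 on those of HK-2 replicate 2 and RPTEC/TERT1 replicate 1. Over all 32 genes the slides with the 2 highest levels were of different line and replicate number in 22 (68.8%), and over all genes tested in 66.9%. The comparison of the control arrays labelled RPTEC/TERT1 with those labelled HK-2 called 0 of the 32 genes in limma's fit without a block, with 0 at an unadjusted p under 0.05, and 0.0% of all genes were called. The slides alike in level, HK-2 replicate 1 with RPTEC/TERT1 replicate 2 and the remaining slides, each bear both line labels. Differences between these pairs of slides largely cancel in this comparison, so its 0 calls do not show like levels.

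**Figure D1:**
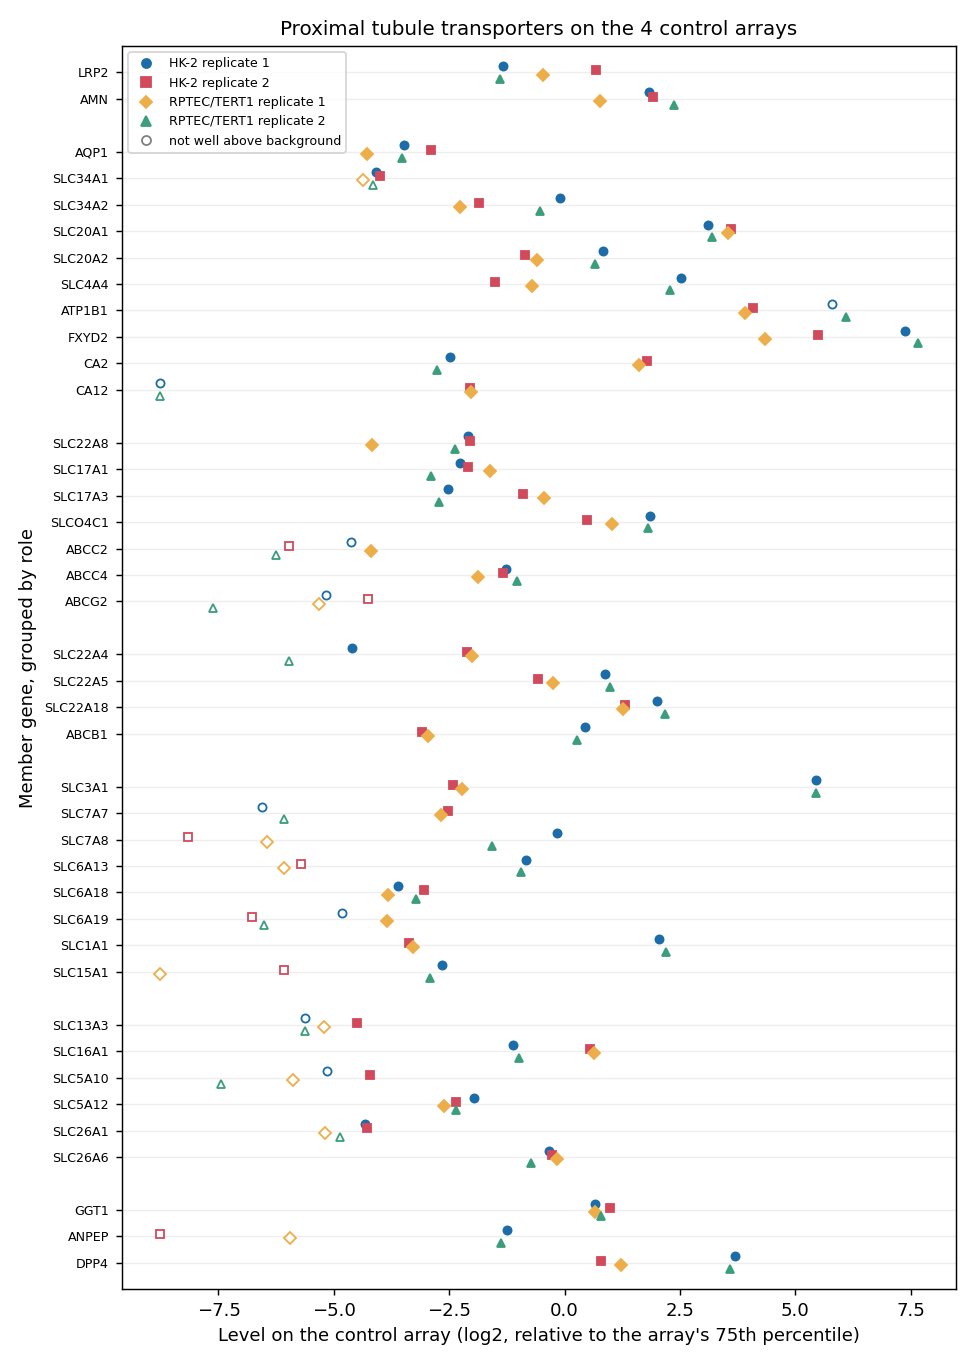
Control levels of the 40 genes well above background on at least 1 array, with the log2 level relative to the 75th percentile on the horizontal axis and 1 point per slide. Open points were not well above background, except for ATP1B1, where the open point is a spot marked as an outlier. SLC3A1, SLC1A1, ABCB1 and SLC4A4 were high on HK-2 replicate 1 and on RPTEC/TERT1 replicate 2, and CA2 and SLC7A7 on the other slides.

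SLC3A1, the heavy chain of the cystine and dibasic amino acid carrier, spanned the widest range among the 32 genes of the module in the fits, with control levels of 5.44, −2.41, −2.21 and 5.45. SLC1A1, the high-affinity glutamate carrier, was at 2.06, −3.38, −3.28 and 2.21. The slides of HK-2 replicate 1 and RPTEC/TERT1 replicate 2 were high in both genes, and the other slides low. SLC4A4, the basolateral sodium bicarbonate carrier, was at 2.52, −1.51, −0.72 and 2.28, ABCB1, the multidrug efflux pump P-glycoprotein, at 0.45, −3.08, −2.96 and 0.26, and FXYD2, the γ subunit of the Na,K-ATPase, at 7.38, 5.49, 4.34 and 7.65. A second probe of ABCB1 gave −2.01, −5.09, −6.03 and −0.67, and a second probe of FXYD2 gave 4.68, 1.38, 0.21 and 4.89, in the same pattern of high and low slides. FXYD2 was the 1 gene of the module with saturated spots, on 6 arrays. DPP4, a peptidase of the brush border, was at 3.70, 0.80, 1.22 and 3.60 and showed the same slides high.

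Of the genes on 6 or 7 arrays, ANPEP, the aminopeptidase N of the brush border, was at −1.24 on the control array of HK-2 replicate 1 and −1.38 on that of RPTEC/TERT1 replicate 2, and was not well above background on any array of the other slides. SLC7A8, a basolateral neutral amino acid exchanger, was at −0.16 and −1.57, SLC6A13, a carrier of GABA and taurine, at −0.84 and −0.94, and SLC15A1, the intestinal type peptide carrier, at −2.65 and −2.92 on the same control arrays. None of these was well above background on the control array of HK-2 replicate 2 or RPTEC/TERT1 replicate 1.

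CA2, the cytosolic carbonic anhydrase, had the opposite order, with control levels of −2.49, 1.78, 1.62 and −2.77. CA12, a membrane carbonic anhydrase, was at −2.06 on HK-2 replicate 2 and −2.04 on RPTEC/TERT1 replicate 1 and at the floor on the other slides. SLC22A4, a carrier of organic cations and ergothioneine, was at −4.61, −2.11, −2.00 and −5.97, the last not well above background. SLC7A7, the light chain of the basolateral dibasic amino acid exchanger, was at −2.53 and −2.68 on the same slides as CA12 and not well above background on the other control arrays. SLC17A3, an apical urate and organic anion carrier, followed with −2.52, −0.90, −0.45 and −2.72. No slide order was thus shared by all genes of the module.

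Markers of other cell types moved with these levels. SLC12A1, the salt carrier of the thick ascending limb, was at 4.34 and 4.99 on the control arrays of HK-2 replicate 1 and of RPTEC/TERT1 replicate 2 and at the floor on those of the other slides, and CLDN16 was at 2.74, −3.40, −4.17 and 3.15. All 3 markers of the thick ascending limb were on the array, UMOD was well above background on 11 arrays, and their summed level, in multiples of the 75th percentile, ranged from 0.202 to 40.9 over the control arrays, from 0.185 to 2.61 over the IL-1β arrays and from 0.156 to 35.9 over the Empa arrays. The fibroblast list (COL1A1, PDGFRB and DCN) summed to between 0.150 and 6.53 over the control arrays, 0.139 and 7.28 over the IL-1β arrays and 0.0555 and 4.03 over the Empa arrays, with DCN at 2.69 on the control arrays of HK-2 replicate 2 and of RPTEC/TERT1 replicate 1 and PDGFRB not well above background on any array. Summed levels stayed between 0.0758 and 1.64 in every group for the distal tubule (SLC12A3 and CALB1 not detected), the collecting duct (AQP2, AQP3, SCNN1B, SCNN1G and ATP6V1G3 not detected), the podocyte (WT1 not detected), the endothelium (PECAM1 not detected) and the leukocyte. Of the epithelial list, EPCAM, KRT8 and KRT18 were detected on all 12 arrays, and CDH1 on 6. The part of these markers in the levels of the module was not tested.

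The question of the IL-1β arrays was which proximal tubule functions move under an inflammatory ligand. With IL-1β, 3 carriers were called higher and 5 apical carriers, receptors or pumps lower. LRP2, the endocytic receptor megalin, fell between 4.12-fold and 6.49-fold on every slide, and SLC22A4 rose between 8.02-fold and at least 53.7-fold. ABCC4 fell and SLC16A1 rose on every slide. SLC34A2, SLC17A1 and SLC34A1 were called lower and SLC7A7 higher, but for these 4 genes the calls support nothing further, as explained below. These calls come from limma's fit with a replicate block, in which the slide (line and replicate number together) was the block. It called 8 of the 32 genes (5.44% of all genes tested), 3 of them higher (2.0%) and 5 lower (3.44%). The fit without a block called 0 of the 32 genes (0.0509% of all genes), with 7 at an unadjusted p under 0.05, and the fit with 1 effect per treatment over the 4 slides called 13 (12.4%), 3 higher (4.52%) and 10 lower (7.91%). The median difference from control was −0.28 over the 32 genes and −0.11 over all genes. IL-1β minus control was above 0 on 4 of 4 slides in 3 of the 32 genes (15.0% of all genes) and below 0 in 12 (24.9%), and 39.9% of all genes had 1 sign on all slides. These counts take in slides with both signals dim, as for SLC7A7 and SLC34A1 on RPTEC/TERT1 replicate 2. The fit without a block leaves out the slides, and the fit with 1 effect also gives both lines the same treatment effect. SLC7A7 entered the fits only through the IL-1β group of HK-2, where it was high, and SLC34A1 only through the control group of HK-2, where it was high, so the filter on dim genes favoured the direction of both. SLC34A2 and SLC17A1 entered through control and Empa groups. The calls of these 4 genes are descriptions and support nothing further. Without that filter the fit with the replicate block called LRP2, ABCC4 and SLC16A1 (adjusted p = 0.0263, 0.0414 and 0.0414), and the other 5 genes had adjusted p from 0.0546 for SLC22A4 to 0.164 for SLC17A1.

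**Figure D2:**
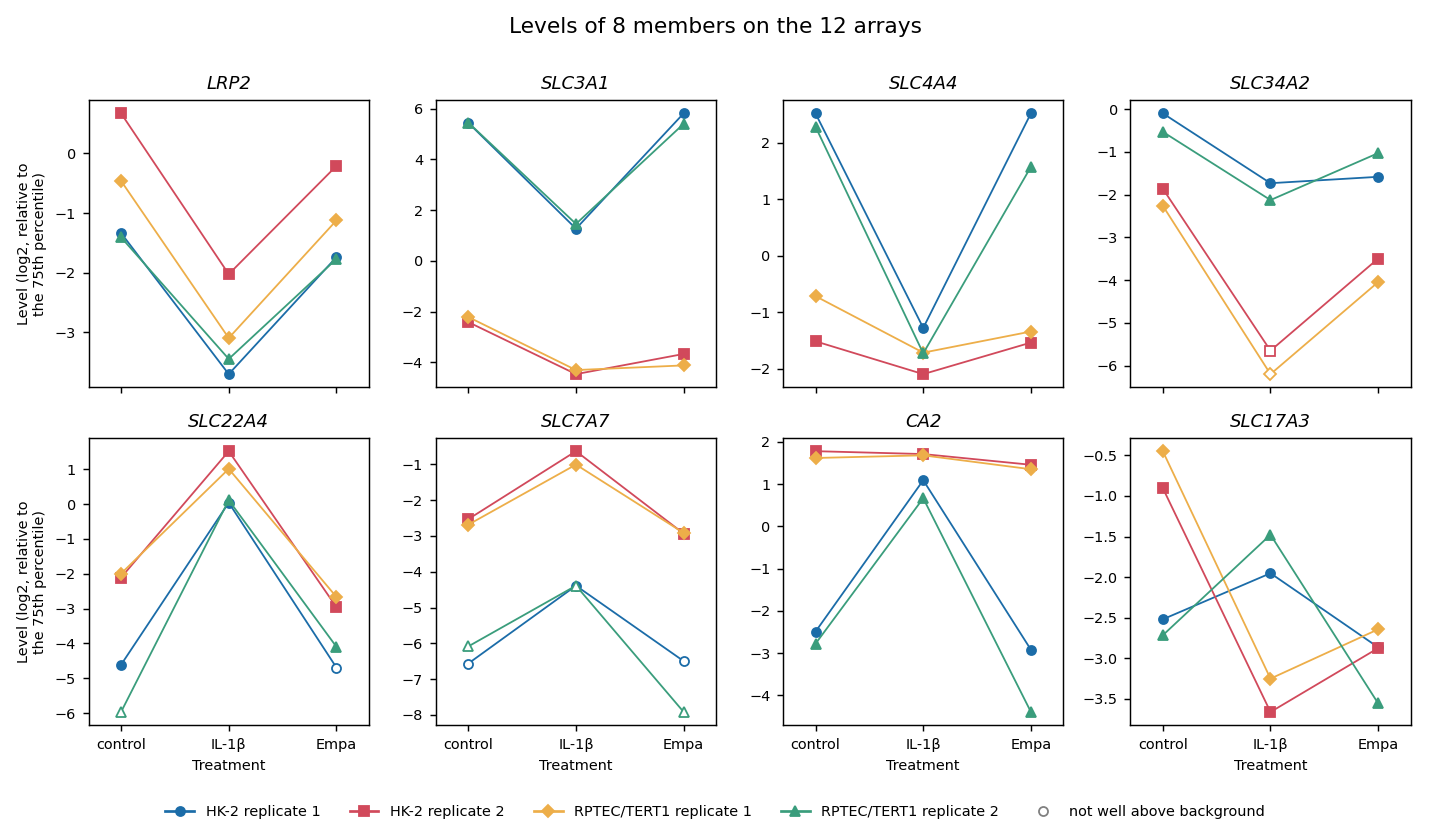
Levels of 8 genes on the 12 arrays, log2 relative to the 75th percentile of the array, with 1 line per slide and open points for signals not well above background. LRP2, SLC3A1, SLC4A4 and SLC34A2 were lower and SLC22A4 higher with IL-1β on every slide, while CA2 and SLC17A3 moved differently from slide to slide. SLC7A7 was higher on the slides where a control or IL-1β signal was well above background.

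Among the endocytic receptors, LRP2 (probe at chr2:169983769-169983828, - strand, hg19) had control levels of −1.33, 0.67, −0.46 and −1.41. Its IL-1β levels were −3.70, −2.02, −3.10 and −3.45, and its Empa levels −1.74, −0.21, −1.12 and −1.77. The IL-1β levels lay below all control and Empa levels. The mean difference with IL-1β was −2.44 ± 0.30 (SD over 4 slides; block adjusted p = 0.00352, limma), and −1.45 with normexp and quantile normalization and −1.36 in the authors' quantile-normalized values. With the block, LRP2 was also the 1 gene of the module called within a labelled line, with −2.53 in HK-2 (adjusted p = 0.0290, 0.255% of all genes called) and −2.34 in RPTEC/TERT1 (adjusted p = 0.0368, 0.267%). Without the filter on dim genes LRP2 was not called within either labelled line. AMN, which carries cubilin to the membrane, was at 1.83, 1.92, 0.77 and 2.36 without a ligand and differed with IL-1β by −0.22 ± 0.55, lower on 3 slides and higher on 1.

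Of the phosphate carriers, SLC34A2 (chr4:25679941-25680000, + strand, hg19), an apical sodium phosphate carrier, had control levels of −0.10, −1.86, −2.26 and −0.53 and IL-1β levels of −1.73, −5.65, −6.20 and −2.13. The Empa levels were −1.58, −3.50, −4.05 and −1.03. On HK-2 replicate 2 and RPTEC/TERT1 replicate 1 the IL-1β signal was not well above background, so the decrease was at least 13.8-fold and 12.3-fold there, against 3.11-fold and 3.02-fold on the other slides. The mean difference was −2.74 (block adjusted p = 0.0229, limma), and −1.14 in the authors' quantile-normalized values.

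SLC34A1, the main phosphate carrier of the brush border, was well above background on 4 arrays. Its control levels were −4.10, −4.00, −4.38 and −4.16, the first 2 of them well above background, and its IL-1β levels −5.66, −5.36, −4.94 and −5.68. On the HK-2 slides it fell at least 2.96-fold and 2.58-fold (mean of 4 slides −1.26, block adjusted p = 0.0217, and 0.0655 without the filter on dim genes). This value rests on dim signals and was −0.18 in the authors' quantile-normalized values. The broadly expressed phosphate carriers SLC20A1 and SLC20A2 differed by −0.02 ± 0.12 and 0.07 ± 0.22 with IL-1β.

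SLC4A4 had IL-1β levels of −1.28, −2.09, −1.71 and −1.73 and Empa levels of 2.52, −1.54, −1.34 and 1.57. It was lower than control on every slide, 13.9-fold and 16.1-fold where the control level was high and less where it was low. The 4 control levels spanned 4.03, and the 4 IL-1β levels lay close together. Its mean difference of −2.35 ± 1.81 passed in the fit with 1 effect (adjusted p = 0.0377) and not in that with the replicate block (adjusted p = 0.0943). FXYD2 was lower on 4 of 4 slides (adjusted p = 0.0506 with 1 effect), but its probe was saturated on 6 arrays, so no size is given for it. Its second probe was lower on 4 of 4 slides, by 0.97 to 1.37. ATP1B1 had control levels of 5.80, 4.09, 3.91 and 6.10 and IL-1β levels of 6.45, 4.73, 4.09 and 6.56. An outlier mark kept it from the main fits, and with outlier spots kept its difference of 0.48 had an adjusted p of 0.210 in the fit with the replicate block.

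CA2 had IL-1β levels of 1.09, 1.71, 1.68 and 0.67. It was higher than control by 3.58 on HK-2 replicate 1 and by 3.44 on RPTEC/TERT1 replicate 2, where its control level was low, and differed by −0.07 and 0.06 on the other slides. Its mean difference of 1.75 did not pass (block adjusted p = 0.274). CA12 differed by 0.90 and 0.72 on HK-2 replicate 2 and RPTEC/TERT1 replicate 1, where it was measured. AQP1, the water channel, differed by −0.18 ± 0.56. A second probe of AQP1, well above background on 7 arrays, was lower on every slide (mean −1.56), so the reading depends on the probe.

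Among the organic anion carriers, SLC17A1 (chr6:25799126-25801155, - strand, hg19), an apical urate and phosphate carrier, was at −2.26, −2.08, −1.61 and −2.88 on the control arrays. The IL-1β levels were −4.38, −7.90, −7.01 and −4.12, with HK-2 replicate 2 and RPTEC/TERT1 replicate 1 not well above background, and the Empa levels were −4.00, −4.42, −4.32 and −4.69. It fell with IL-1β 4.35-fold, at least 23.3-fold, at least 19.4-fold and 2.36-fold (mean −3.65, block adjusted p = 0.0459). In the authors' quantile-normalized values the mean was −0.94.

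The neighbouring gene SLC17A3 had IL-1β levels of −1.95, −3.66, −3.25 and −1.48. It was 6.76-fold and 6.97-fold lower than control on HK-2 replicate 2 and on RPTEC/TERT1 replicate 1, and 1.48-fold and 2.36-fold higher on HK-2 replicate 1 and RPTEC/TERT1 replicate 2. Directions thus differed between slides, and its mean of −0.94 did not pass (block adjusted p = 0.469).

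ABCC4, an apical pump for organic anions and cyclic nucleotides, was at −1.26, −1.32, −1.88 and −1.02 without a ligand and at −2.29, −2.51, −2.56 and −2.09 with IL-1β. It fell between 1.60-fold and 2.28-fold, and no IL-1β level reached a control level (mean −0.99 ± 0.22, block adjusted p = 0.0232). SLCO4C1, a basolateral organic anion carrier, was at 1.85, 0.49, 1.02 and 1.81 without a ligand and at −0.85, −0.44, −0.34 and −0.62 with IL-1β, and passed with 1 effect only (mean −1.85, adjusted p = 0.0338). Its other probes, well above background on 2 and 5 arrays, gave mean differences of −0.90 and 0.01. SLC22A8, the second basolateral organic anion exchanger, had control levels of −2.10, −2.06, −4.18 and −2.36 and differed by 0.01 ± 0.40.

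Among the organic cation and drug carriers, SLC22A4 (chr5:131679470-131679529, + strand, hg19) had IL-1β levels of 0.04, 1.52, 1.01 and 0.11, above every control and Empa level. The Empa levels were −4.69, −2.96, −2.67 and −4.09. It rose 25.1-fold, 12.3-fold, 8.02-fold and at least 53.7-fold (mean 4.34, block adjusted p = 0.00727), and the largest folds were on the slides with the lowest control levels. The mean was 2.71 with normexp and quantile normalization and 2.43 in the authors' quantile-normalized values. SLC22A18 was at 2.00, 1.32, 1.26 and 2.17 without a ligand and at 0.63, 0.35, 0.76 and 0.71 with IL-1β, and passed with 1 effect only (mean −1.08, adjusted p = 0.0360). SLC22A5, the carnitine carrier and neighbour of SLC22A4, differed by 0.19 ± 0.23.

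ABCB1 had IL-1β levels of −0.47, −2.69, −2.48 and −1.02. It was lower by 0.91 and 1.28 on HK-2 replicate 1 and on RPTEC/TERT1 replicate 2 and higher by 0.38 and 0.48 on the other slides, with a mean of −0.33 that did not pass (block adjusted p = 0.605). Its second probe gave differences between −1.76 and 0.60, with 2 slides higher as well.

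Among the amino acid and peptide carriers, SLC3A1 had IL-1β levels of 1.27, −4.47, −4.31 and 1.46 and Empa levels of 5.82, −3.67, −4.12 and 5.40. It was lower with IL-1β on every slide, 18.1-fold, 4.15-fold, 4.26-fold and 16.0-fold, and on each slide the difference was larger in size than that with Empa. Its mean of −3.08 ± 1.16 passed with 1 effect (adjusted p = 0.0162) and had an adjusted p of 0.0540 with the replicate block. SLC1A1 was lower by 0.56 to 1.15, with IL-1β levels of 1.05, −3.96, −3.84 and 1.05 (mean −0.83, adjusted p = 0.0400 with 1 effect and 0.0854 with the block).

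SLC7A7 (chr14:23242604-23242663, - strand, hg19) was higher with IL-1β on the slides with a measured signal. Its IL-1β levels were −4.39, −0.63, −1.01 and −4.39. On RPTEC/TERT1 replicate 2 neither the control nor the IL-1β signal was well above background, so that slide gives no direction. The rise was 3.73-fold and 3.20-fold where both arrays were bright and at least 2.70-fold on HK-2 replicate 1. The mean with the dim slide included was 1.86 ± 0.23 (block adjusted p = 0.0189, limma, and 0.0805 without the filter on dim genes). SLC7A7 entered the fits only through the IL-1β group of HK-2, where it was high, so this call supports nothing further. In the authors' quantile-normalized values the mean was 0.70. SLC7A8 was 11.8-fold and 9.20-fold lower, and SLC6A13 5.48-fold and 8.07-fold lower, on HK-2 replicate 1 and RPTEC/TERT1 replicate 2. SLC15A1 was 9.69-fold and 12.9-fold higher on the same slides, with IL-1β levels of 0.63 and 0.78. On the other slides neither array of the IL-1β and control pair was well above background for these 3 genes. SLC15A1 did not pass (block adjusted p = 0.698), and SLC7A8 and SLC6A13 were not tested. Without the filter on dim genes the fit with 1 effect called 9 of the 52 genes it covered (5.43% of all genes), SLC6A13 among them (adjusted p = 0.0200). SLC23A1 had an adjusted p of 0.0186 there, but with no signal well above background it gives no fold.

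SLC16A1 (chr1:113454503-113454562, - strand, hg19), the monocarboxylate carrier that moves lactate, had control levels of −1.11, 0.55, 0.64 and −0.98 and IL-1β levels of 0.44, 2.27, 1.68 and 0.49. The Empa levels were −0.34, 0.85, 0.47 and −0.73. It rose with IL-1β between 2.06-fold and 3.28-fold on every slide (mean 1.45 ± 0.29, block adjusted p = 0.0114). SLC26A6, an apical anion exchanger, differed by 0.64 ± 0.59 and SLC5A12, the sodium-coupled lactate carrier, by −0.12 ± 0.38, and neither passed in any of the 3 fits.

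Among the brush border peptidases none passed. GGT1, which splits glutathione, had control levels of 0.66, 0.99, 0.66 and 0.80 and IL-1β levels of 0.15, 0.20, 0.21 and 0.72, lower on every slide by 0.08 to 0.79. DPP4 had IL-1β levels of 2.34, 0.90, 1.07 and 2.00 and was 2.57-fold and 3.02-fold lower on HK-2 replicate 1 and RPTEC/TERT1 replicate 2, against differences of 0.10 and −0.15 on the other slides (mean −0.75, block adjusted p = 0.308). ANPEP was 4.79-fold and 4.66-fold higher where it was measured, with IL-1β levels of 1.02 and 0.85. The peptidases DPP4 and ANPEP thus moved in opposite directions on the same slides.

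**Figure D3:**
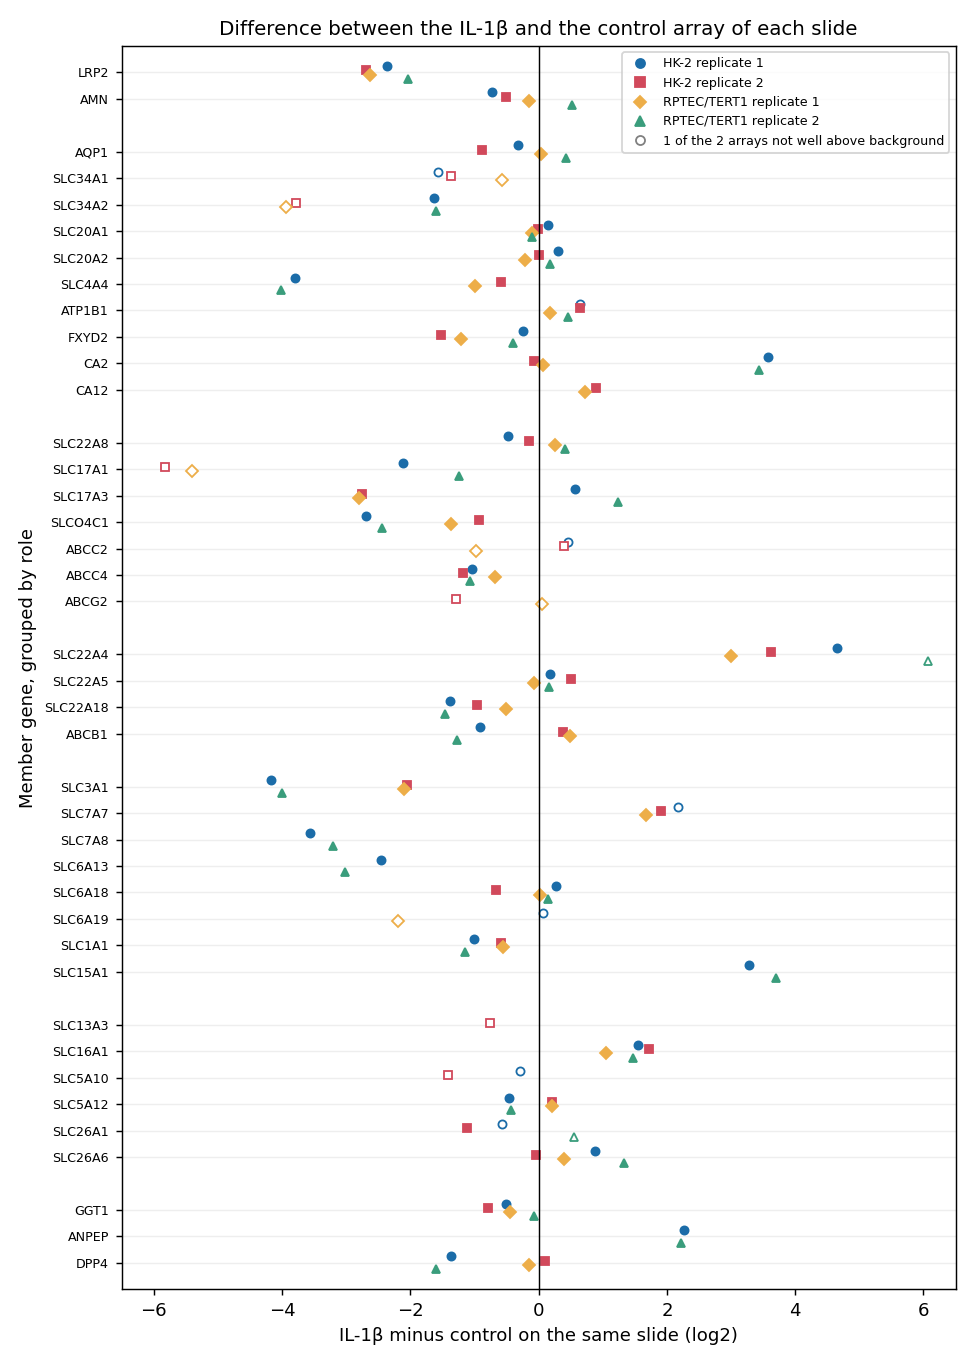
Difference between the IL-1β and the control array of each slide, in log2 units, for the genes with at least 1 measured array in a slide. Open points have 1 array not well above background or marked as an outlier, and slides with both arrays dim are left out. LRP2, SLC34A2, SLC17A1 and SLC3A1 lie left of 0 on all slides drawn and SLC22A4, SLC7A7 and SLC16A1 right of 0, whereas SLC17A3, ABCB1 and CA2 split between slides.

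How often the IL-1β calls passed when data were left out differed between genes. These refits kept the genes that the filter on dim genes had chosen on all 12 arrays. For SLC7A7, SLC34A1, SLC34A2 and SLC17A1 the counts are therefore descriptions and support nothing further. When each slide was left out of the fit with 1 effect, LRP2, SLC22A4, SLC16A1, SLC7A7 and SLC34A2 passed in 4 of 4 fits. ABCC4 and SLC34A1 did not pass without RPTEC/TERT1 replicate 2, SLC17A1 without HK-2 replicate 2 or RPTEC/TERT1 replicate 1, and SLC3A1 and SLC4A4 without HK-2 replicate 1 or RPTEC/TERT1 replicate 2. SLC1A1, SLC22A18 and SLCO4C1 did not pass without any 1 of the slides. When each array was left out of the fit with the replicate block, LRP2 passed in 12 of 12 fits and SLC22A4 in 11, against 8 for SLC16A1 and SLC34A2, 6 for SLC34A1 and SLC7A7, 4 for ABCC4 and 2 for SLC17A1. The difference of the IL-1β effect between the labelled lines was called for 0 of the 32 genes (0.0% of all genes) without and with the block, with 0 at an unadjusted p under 0.05 in both. The pairs of slides alike in level each bear both line labels, so differences between these pairs largely cancel in this comparison.

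The carriers of the brush border are held by scaffold proteins, and protein uptake needs a set of adaptors and vesicle proteins. Of 28 listed brush border enzymes and scaffolds 24 were on the array and 11 were tested, with 0 higher (15.0% of all genes) and 3 lower (24.9%) with IL-1β on 4 of 4 slides and 1 called lower with the block (3.44%) and with 1 effect (7.91%). This gene was PDZK1, which anchors phosphate, urate and peptide carriers in the microvilli. It was at 3.78, 2.87, 2.97 and 3.81 without a ligand, at −0.88, 0.79, 0.20 and −0.48 with IL-1β and at 4.27, 3.06, 2.54 and 3.65 with Empa. All IL-1β levels lay below all others, and the mean difference was −3.45 ± 1.22 (block adjusted p = 0.0155, limma; 0.0825 without a block). PDZK1IP1, a small membrane protein that binds PDZK1, went from 3.18, 3.11, 2.85 and 3.30 to 5.65, 4.12, 3.90 and 5.62 and has outlier spots that kept it from the fits. MYO7B, a motor of the microvilli, went from −2.50 to −5.88 on HK-2 replicate 1 and from −2.97 to −6.42 on RPTEC/TERT1 replicate 2, where the IL-1β signals were not well above background. VIL1, MEP1A, MEP1B, TREH, XPNPEP2 and ANKS4B were among those not well above background on any array.

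All 16 genes of the endocytic machinery were on the array and 15 were tested, with 1 higher (15.0% of all genes) and 4 lower (24.9%) with IL-1β on 4 of 4 slides. CLCN5, the endosomal chloride carrier, had control levels of 1.27, −2.40, −2.63 and 1.82 and IL-1β levels of −1.10, −2.69, −3.03 and −1.32 and did not pass (block adjusted p = 0.132). The median difference over the list was −0.09, against −0.11 for all genes. Of the 2 tested endocytic receptors, LRP2 differed by −2.44 and AMN by −0.22.

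Markers of other segments and of the epithelium moved with IL-1β on the slides on which SLC3A1, SLC4A4 and DPP4 were high. SLC12A1 went from 4.34 to −0.49 on HK-2 replicate 1 and from 4.99 to −0.52 on RPTEC/TERT1 replicate 2, CLDN16 was lower on every slide (mean −1.33, adjusted p = 0.0389 with 1 effect, 0.102 with the block and 1.0 without), CDH1 went from 2.81 to −0.54 and from 2.98 to −0.93, and EPCAM was lower on every slide (mean −0.98, adjusted p = 0.0188 with 1 effect, 0.0638 with the block and 0.849 without) while KRT18 differed by 0.16. In such bulk samples fewer cells of a type and less RNA per cell cannot be told apart. The part of these markers in the changes of the module was not tested.

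The Empa arrays ask whether Empa moves the same genes without an inflammatory ligand. Empa was called for 0 of the 32 genes without a block (0.0% of all genes), with the replicate block (0.0%) and with 1 effect (0.00636%), by limma with Benjamini-Hochberg adjustment. The genes with an unadjusted p under 0.05 numbered 2, 6 and 6 in the 3 fits. Empa minus control was above 0 on 4 of 4 slides in 1 gene (12.5% of all genes) and below 0 in 8 (13.9%), with 26.4% of all genes on 1 side of 0, and the median difference was −0.23 against −0.02 for all genes. No call can therefore be given for Empa, and the values that follow are descriptions. The Empa and IL-1β differences share the control arrays.

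The 8 genes below control on every slide were LRP2, SLC34A1, SLC34A2, CA2, SLC17A1, SLC17A3, ABCC4 and GGT1. For SLC34A1 neither the control nor the Empa signal was well above background on the slides labelled RPTEC/TERT1. Its place among the 8 thus rests on dim signals, which have no order. GGT1 (chr22:25023871-25023930, + strand, hg19) had Empa levels of 0.02, 0.13, 0.04 and 0.20, all below the control levels, with decreases of 1.51-fold to 1.80-fold (mean −0.68 ± 0.12; adjusted p = 1.0 without a block, 0.518 with the block and 0.231 with 1 effect). A second probe of GGT1 was also below control on every slide, by 0.42 to 1.76. It lies at chr22:25023862-25023921 (hg19) and overlaps the first, so it is no separate reading. The decrease of GGT1 was larger with Empa than with IL-1β on each slide, which was not tested.

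LRP2 was lower with Empa by 0.36 to 0.88 (block adjusted p = 0.527), ABCC4 by 0.24 to 0.86 (0.527) and SLC34A2 by 0.50 to 1.78 (0.535). SLC17A1 was lower by 1.74 to 2.71 (0.535) and SLC17A3 by 0.34 to 2.19 (0.585). For SLC17A3 the Empa levels were −2.86, −2.87, −2.64 and −3.56, so the slides with the higher control levels came down to the level of the others. CA2 was lower by 0.27 to 1.62, with Empa levels of −2.92, 1.46, 1.35 and −4.39.

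SLC1A1 was the 1 gene above control on every slide, by 0.15 to 1.06, with Empa levels of 3.12, −2.95, −3.12 and 2.45 (block adjusted p = 0.575). SLC3A1 differed by 0.37 and −0.05 on HK-2 replicate 1 and on RPTEC/TERT1 replicate 2 and by −1.26 and −1.91 on the other slides. For DPP4 the differences with Empa were 0.72, 0.23, −0.16 and 0.26. SLC22A4, SLC7A7 and SLC16A1, which rose with IL-1β, differed with Empa by 0.07 ± 1.25, −0.60 ± 0.84 and 0.29 ± 0.38. For SLC7A7 both signals were dim on HK-2 replicate 1 and RPTEC/TERT1 replicate 2. It differed by −0.40 on HK-2 replicate 2 and by −0.23 on RPTEC/TERT1 replicate 1. The difference of the Empa effect between the labelled lines was called for 0 of the 32 genes (0.0% of all genes) in both fits. Here too, differences between the pairs of slides alike in level largely cancel.

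**Figure D4:**
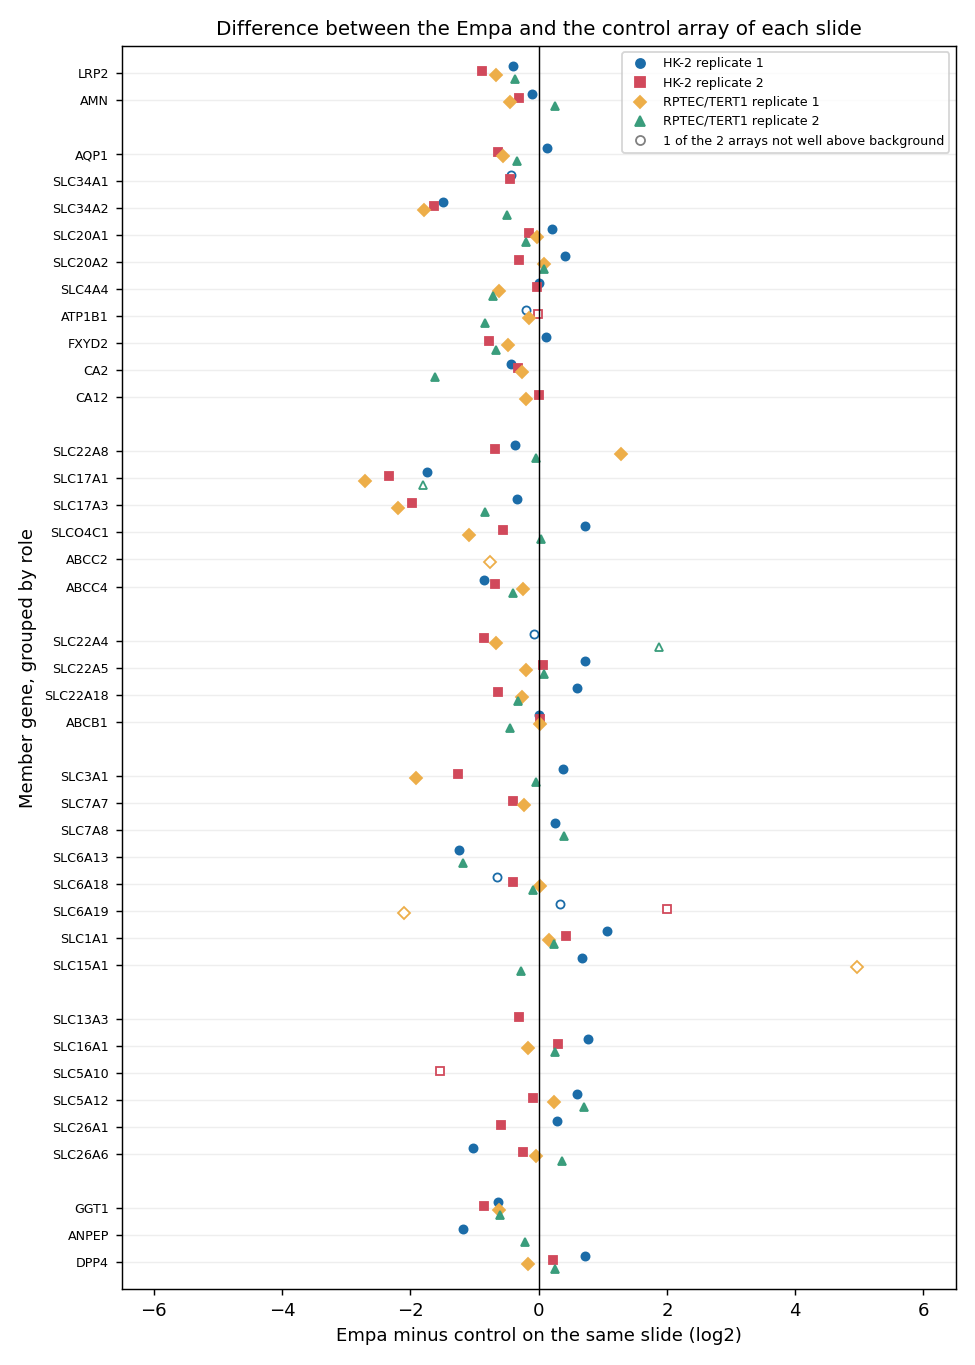
Difference between the Empa and the control array of each slide, in log2 units, drawn on the same scale and with the same symbols as for IL-1β. Most points lie within 1 of the 0 line, GGT1 and SLC17A1 are left of it on every slide, and SLC1A1 is right of it.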

How the data were processed

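RNA of 12 cultures was measured on one-color Agilent arrays. The authors deposited scanner intensities made with Agilent Feature Extraction 9.5.3.1, which per the file headers subtracted the local background and detrended each array, on an annotation of hg19. A table of log2 values, quantile-normalized by the authors per its name, served as an alternative and for no main value. Control spots were left out (43118 of 44495 spots used), as were spots marked as outliers (1.06% to 1.61% of the spots of an array), a floor of 1 signal unit was set after scaling, and log2 values were taken relative to the 75th percentile of each array. Each gene entered with its brightest probe that passed the scanner's background test on the 2 arrays of some group, giving 15717 genes. Groups came from the sample titles. limma 3.58.1 in R 4.3.3 (lmFit, eBayes, Benjamini-Hochberg over all genes, adjusted p under 0.05) was run on the 6 groups without a block, with the slide (line and replicate number) as a block, and with 1 effect per treatment over the 4 slides, each after a test on simulated data. Samples of 1 slide deviated together from their group means (r = 0.627 to 0.894). Samples of the same replicate number in the other line deviated in opposite directions (r = −0.805 to −0.774). The slides of a labelled line were unlike in level, so these values cannot tell whether the cultures of a slide were paired. The 75th percentile ranged from 298 to 765 units and 53.5% to 63.1% of the probes were well above background.

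The genes and lists were chosen with earlier results of these data known. Values on all arrays are given for genes that passed a fit, that differed by 0.5 or more in 1 direction on 4 slides or whose control levels spanned 3 or more, and for textbook markers. Folds against a signal not well above background are bounds against the lowest signal well above background of that array, or the dim signal itself where higher. Other probes, filters, floors, background corrections, normalizations and left-out arrays were tried. Promoters come from RefSeq (GRCh38.p14). Figures were drawn with matplotlib 3.10.9. Results for some listed genes outside the module are not reported here.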

Additional observations from a re-analysis of the deposited data

Results flagged for a closer look

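AQP1 and SLC22A8 stood out because both slides labelled HK-2 moved one way with IL-1β and both labelled RPTEC/TERT1 the other way. For AQP1 the differences from control were −0.32 and −0.88 in HK-2 and 0.04 and 0.43 in RPTEC/TERT1, and the mean of HK-2 minus that of RPTEC/TERT1 was −0.84. For SLC22A8 they were −0.47 and −0.16 against 0.25 and 0.41, and the difference of the means was −0.64. In limma's test of the difference between the lines the adjusted p was 1.0 for each gene both without and with the replicate block, so neither passed. A second probe of AQP1, well above background on 7 arrays, was lower with IL-1β on 4 of 4 slides, and a second probe of SLC22A8 was dim on all arrays.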

How the results depend on the processing

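IL-1β was called for 0 of the 32 genes without a block, for 8 with the replicate block and for 13 with 1 effect per treatment. Without the filter on dim genes these became 3 (LRP2, ABCC4 and SLC16A1) and 9, and with outlier spots kept 8 and 14, with FXYD2 added. Within each labelled line 1 gene (LRP2) was called with the replicate block, with outlier spots left out or kept, and 0 without the filter on dim genes. Leaving out 1 slide at a time gave 6 to 9 calls with 1 effect: 8 without HK-2 replicate 1, 9 without HK-2 replicate 2 or RPTEC/TERT1 replicate 1, and 6 without RPTEC/TERT1 replicate 2. Leaving out 1 array at a time from the fit with the replicate block gave 1 to 10 calls: 1 without control replicate 1 of HK-2, 2 without control replicate 2 of either line, 3 without control replicate 1 of RPTEC/TERT1, 4 without IL-1β replicate 2 of RPTEC/TERT1, 5 without IL-1β replicate 1 of HK-2 and 10 without IL-1β replicate 2 of HK-2. In the fits without a block every left-out array gave 0 calls. The genes with 1 sign of the Empa difference on all slides numbered 9, and 11 to 17 over 3 slides, with 17 without HK-2 replicate 1 and 15 without RPTEC/TERT1 replicate 1. Of 254 recomputed counts 234 stayed within 1.5 times the value given, with a 0 that stayed 0 taken as the same. The fit without a block called 0 genes in every comparison, so many of these counts are 0 against 0. The share therefore says little about the calls with the replicate block, which ranged from 1 to 10 when 1 array was left out. No mean difference reversed, 553 stayed within the spread between slides and 23 moved. All 23 were under normexp with quantile normalization or in the authors' quantile-normalized values. SLC20A1 with IL-1β became −0.20 under both, and the others became smaller in size. Under these settings LRP2 was −1.45 and −1.36, SLC22A4 2.71 and 2.43, SLC34A2 −1.16 and −1.14, SLC17A1 −0.98 and −0.94 and SLC34A1 −0.19 and −0.18. The scan as a term gave 0 calls. The cause of these shifts was not tested. Dim signals limit SLC34A1, SLC17A1, SLC34A2, SLC7A7 and SLC22A4, whose folds are bounds on some slides.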

Other observations

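Among the listed genes outside the module, ENPEP, the aminopeptidase A of the brush border, was detected on 6 arrays, those of HK-2 replicate 2 and RPTEC/TERT1 replicate 1. Its control levels were −1.89 and −0.49, and it was dim on all arrays of the other slides, where ANPEP was detected. NAPSA, an aspartic protease, was lower with IL-1β on 4 of 4 slides (mean −0.76), as was EZR, the linker of microvilli to the membrane (mean −0.58), and neither passed. SLC9A3R2, a scaffold of the sodium-hydrogen exchanger, was lower with Empa on 4 of 4 slides (mean −0.68 ± 0.53) and did not pass.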
